A study of Mus musculus with 4 samples.

Results

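Primitive endoderm regulators are 8 genes, Gata4, Gata6, Sox17, Sox7, Hnf4a, Pdgfra, Dab2 and Cxcr4, taken by symbol from a comparison table of mouse embryonic stem cells with and without glycogen synthase kinase 3. Each symbol matched 1 gene ID, so the set is 8 of 46603 gene IDs, and all 8 were among the 30237 genes with a count. The study compared Gsk3a-/-;Gsk3b-/- double knockout cells with Gsk3a+/+;Gsk3b+/+ wild-type cells, and each genotype had 2 biological replicates. Both genotypes were grown with 15% serum and 1000 units/mL of leukaemia inhibitory factor over irradiated fibroblasts, the feeder cells, whose RNA can enter the libraries. Polyadenylated RNA was sequenced from stranded libraries. The sources used here do not say how the alleles were made or whether a line is 1 clone. The sample labels state embryonic day 16 for the cells, whereas the design text has a different designation that can be read as an age or as a cell line.

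The table names its groups only B and A and does not say which genotype each one is, so every fold change here is B over A, and B and A stand for no genotype. The authors' deposited table gives 1 mean normalized count for each group, where normalized means scaled by the size factor of each library. Because each mean is built from the whole reads of 2 libraries, the counts of the single libraries could be recovered, and these libraries are called B1, B2, A1 and A2. The numbers only name the libraries and do not follow the labels' numbering. Recovered totals ranged from 112655210 to 146326307 reads, so counting error is small for all 8 genes and the spread between libraries limits the precision. Of the targeted genes, Gsk3a had normalized counts of 1697 and 1347 in group B, against 6353 and 7104 in group A, and Gsk3b had 5051 and 5002 in group B, against 5438 and 6285 in group A. Pou5f1 marks pluripotent cells and was named outside the rule for named genes. It had 105468 and 93404 in group B, against 115577 and 125786 in group A (adjusted p 0.790, authors' deposited table).

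Primitive endoderm is the epithelium that forms beside the epiblast in the blastocyst and later gives the visceral and parietal endoderm of the yolk sac. In the embryo, FGF4 made by epiblast-fated cells acts through FGF receptors and ERK to favour Gata6 over Nanog, and Pdgfra, Sox17, Gata4 and Sox7 follow in the same cells. Embryonic stem cells in serum and leukaemia inhibitory factor are known to hold a small share of cells with this programme. Hnf4a and Dab2 are best known from the visceral endoderm that forms later, and Cxcr4 is used as a surface marker of definitive endoderm.

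The 8 genes fell into unlike sets. In Gata4, Gata6, Sox17, Sox7 and Pdgfra the lower B library exceeded the higher A library, with means 5.18-fold to 11.3-fold higher in group B in the authors' deposited table. Hnf4a and Cxcr4 had overlapping libraries and fold changes of 0.903 and 0.911, and Dab2 overlapped with a fold change of 1.75. Complete separation with B above A held for 5 of the 8 genes, against 26.4% of the 20465 genes whose mean was 10 or more, and the opposite separation for 0 of the 8, against 26.0%. A log2 fold change above 2 was found for the same 5 genes, against 1.22% of those 20465 genes. The median log2 fold change of the 8 was 2.49, beside 0.01 over those 20465 genes. None of the 8 passed an adjusted p of 0.05 in the authors' DESeq test, where 1.54% of all 30237 tested genes passed as higher in group B and 1.92% as lower. Those 5 had an unadjusted p under 0.05, against 5.11% of all tested genes that were higher in group B at that level. In bulk RNA, more cells with the programme and more RNA per such cell cannot be told apart.

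**Figure D1:**
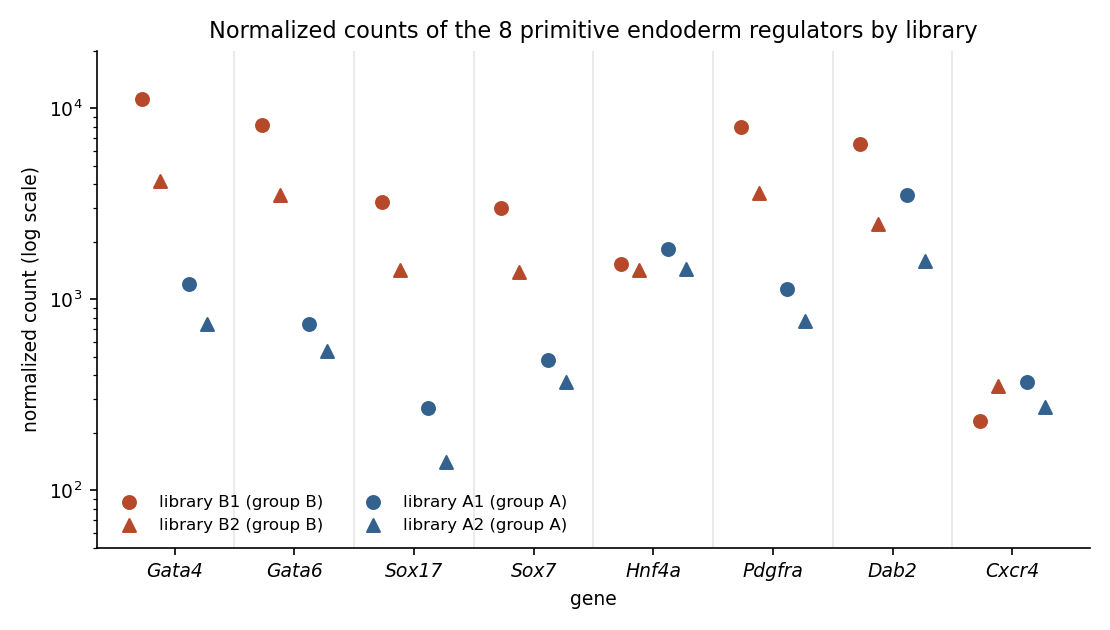
Normalized counts of the 8 genes on a log axis, with library B1 and B2 (red) left of A1 and A2 (blue) for each gene. For Gata4, Gata6, Sox17, Sox7 and Pdgfra the lower B library, B2, stands at 2.89 to 5.27 times the higher A library, A1, while the libraries of Hnf4a, Dab2 and Cxcr4 overlap.

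The GATA factors are zinc finger proteins that are able to drive embryonic stem cells into extraembryonic endoderm when they are forced on. Gata6 (ENSMUSG00000005836, chromosome 18, 11052064 to 11085635, plus strand, mm10) had normalized counts of 8215 in B1 and 3503 in B2, against 744 in A1 and 535 in A2. Both B libraries stood far above both A libraries, and B1 was the highest of the 4. The authors' deposited table puts the log2 fold change at 3.20 (adjusted p 0.117). Gata4 (ENSMUSG00000021944, chromosome 14, 63198922 to 63271692, minus strand), which follows Gata6 in the embryo, had 11236 in B1 and 4145 in B2, against 1197 in A1 and 742 in A2. The order of the libraries was the one seen for Gata6, without overlap. The difference amounted to 2.99 in log2 terms (adjusted p 0.285, authors' deposited table).

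Sox17 and Sox7 are the SOXF proteins of this lineage, transcription factors with an HMG box. Sox17 (ENSMUSG00000025902, chromosome 1, 4490931 to 4497354, minus strand) also marks definitive endoderm. Its normalized counts were 3231 in B1 and 1427 in B2, against 271 in A1 and 140.4 in A2. It had the largest fold change of the 8 genes, a log2 value of 3.50 (adjusted p 0.0652, authors' deposited table). Sox7 (ENSMUSG00000063060, chromosome 14, 63943673 to 63950732, plus strand), known from parietal and primitive endoderm, had 3002 in B1 and 1386 in B2, against 479 in A1 and 369 in A2. It was the least different of the 5 separated genes, by 2.37 in log2 terms (adjusted p 0.194, authors' deposited table).

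Pdgfra, Dab2 and Cxcr4 encode a receptor for platelet-derived growth factors, an endocytic adaptor and a chemokine receptor. Pdgfra (ENSMUSG00000029231, chromosome 5, 75152292 to 75198215, plus strand), an early surface marker of primitive endoderm, had 7979 in B1 and 3608 in B2, against 1139 in A1 and 770.2 in A2. Its groups did not overlap, and the log2 difference was 2.60 (adjusted p 0.167, authors' deposited table). Fibroblasts are also known to express Pdgfra, and its libraries are set beside feeder markers further on. Dab2 (ENSMUSG00000022150, chromosome 15, 6299788 to 6440712, plus strand), which links cargo receptors such as megalin to clathrin, had 6499 in B1 and 2472 in B2, against 3522 in A1 and 1593 in A2. One library of each group was high and the other low, and A1 exceeded B2, so the log2 fold change of 0.81 was within the spread (adjusted p of 1, authors' deposited table). Cxcr4 (ENSMUSG00000045382, chromosome 1, 128588199 to 128592293, minus strand) had 232 in B1 and 351 in B2, against 368 in A1 and 272 in A2. The lowest and the highest values were B1 and A1, with the other two between them, and its log2 fold change was -0.14 (adjusted p of 1, authors' deposited table).

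Hnf4a (ENSMUSG00000017950, chromosome 2, 163506808 to 163572910, plus strand) encodes the nuclear receptor that turns on serum protein genes in visceral endoderm. Its normalized counts were 1529 in B1 and 1423 in B2, against 1826 in A1 and 1445 in A2. The 4 libraries were close together, and B1 lay between A1 and A2. For Hnf4a the authors' deposited table has a log2 difference of -0.15 (adjusted p of 1). Of the 8 genes it differed least between the libraries of group B, B1 over B2 being 1.07.

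Promoter sequence was available for 4 of the 8 genes, Pdgfra, Dab2, Hnf4a and Cxcr4, and is shown to set the 1 separated gene among them beside the other three. Each window holds 200 bases, reads 5′ to 3′ on the gene's strand and ends 50 bases before a RefSeq start (GRCm38.p6), and only windows free of annotated exons of the gene were kept. They are at chr5:75152001-75152200 (plus) for Pdgfra and chr1:128592350-128592549 (minus) for Cxcr4. For the upstream starts of Dab2 and Hnf4a they are at chr15:6299539-6299738 (plus) and chr2:163506607-163506806 (plus). Capitals mark matches on either strand to GATA words (AGATAA or TGATAA), TCF/LEF words (AACAAAG or ATCAAAG or TACAAAG or TTCAAAG) or the SOX word ACAAT, none of which contains another.
Pdgfra: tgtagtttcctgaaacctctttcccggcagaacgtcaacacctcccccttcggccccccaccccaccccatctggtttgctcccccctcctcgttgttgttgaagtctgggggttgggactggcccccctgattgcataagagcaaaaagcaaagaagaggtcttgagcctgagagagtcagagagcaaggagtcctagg
Dab2: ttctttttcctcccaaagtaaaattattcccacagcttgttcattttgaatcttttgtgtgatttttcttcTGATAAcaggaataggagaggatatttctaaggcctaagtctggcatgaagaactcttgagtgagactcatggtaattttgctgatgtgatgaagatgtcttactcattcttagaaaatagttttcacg
Hnf4a: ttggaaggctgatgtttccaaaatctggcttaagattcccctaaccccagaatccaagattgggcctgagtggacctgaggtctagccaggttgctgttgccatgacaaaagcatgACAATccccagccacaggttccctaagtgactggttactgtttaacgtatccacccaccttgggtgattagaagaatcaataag
Cxcr4: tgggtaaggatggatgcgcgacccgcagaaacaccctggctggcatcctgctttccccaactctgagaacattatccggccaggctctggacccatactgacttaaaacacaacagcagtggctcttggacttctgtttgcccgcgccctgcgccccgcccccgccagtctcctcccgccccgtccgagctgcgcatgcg
In these windows Dab2 held 1 GATA word and Hnf4a 1 SOX word, and Pdgfra and Cxcr4 held no match. The downstream windows of Dab2 (chr15:6386498-6386697) and Hnf4a (chr2:163546905-163547104), left out because they overlap an exon, held no match. Of all 32851 RefSeq windows of this length, 14.2% held a GATA word, 12.4% a TCF/LEF word and 23.7% the SOX word.

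The same differences were tested on the recovered counts with limma, which shares information on the spread across all genes. By this test 3 of the 8 genes passed an adjusted p of 0.05, Gata6, Sox17 and Pdgfra, all higher in group B, against 0.977% of the 20465 genes tested. On the log2(normalized count + 1) scale limma put Gata6 at 3.09 (SE 0.41, adjusted p = 0.0340), Sox17 at 3.45 (SE 0.47, adjusted p = 0.0365) and Pdgfra at 2.52 (SE 0.39, adjusted p = 0.0456). Gata4 and Sox7 narrowly missed the threshold, at 2.86 (SE 0.48, adjusted p = 0.0510) and 2.28 (SE 0.38, adjusted p = 0.0503). Other settings of limma called all 5 with a pseudocount of 5 (1.19% of genes called higher), with no filter on low values (0.698%) and with upper-quartile scaling (1.24%), and all but Gata4 with total-count scaling (1.02%). The authors' p-values, adjusted over the 20465 genes alone, passed Sox17 only, against 2.61% of those genes. Without B1, and likewise without B2, all 5 passed in limma, with 2.17% and 2.69% of all genes called higher. Without A1, or without A2, 0 of the 8 passed and so did 0 genes of the whole table in limma, since the spread then came from B1 and B2 alone. For the other three the 95% confidence interval of the log2 fold change in limma ran between -0.56 and 0.28 for Hnf4a, between -0.88 and 0.58 for Cxcr4 and between -0.58 and 2.10 for Dab2. A difference of the size seen for Sox7 with all 4 libraries lies outside all 3 intervals.

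**Figure D2:**
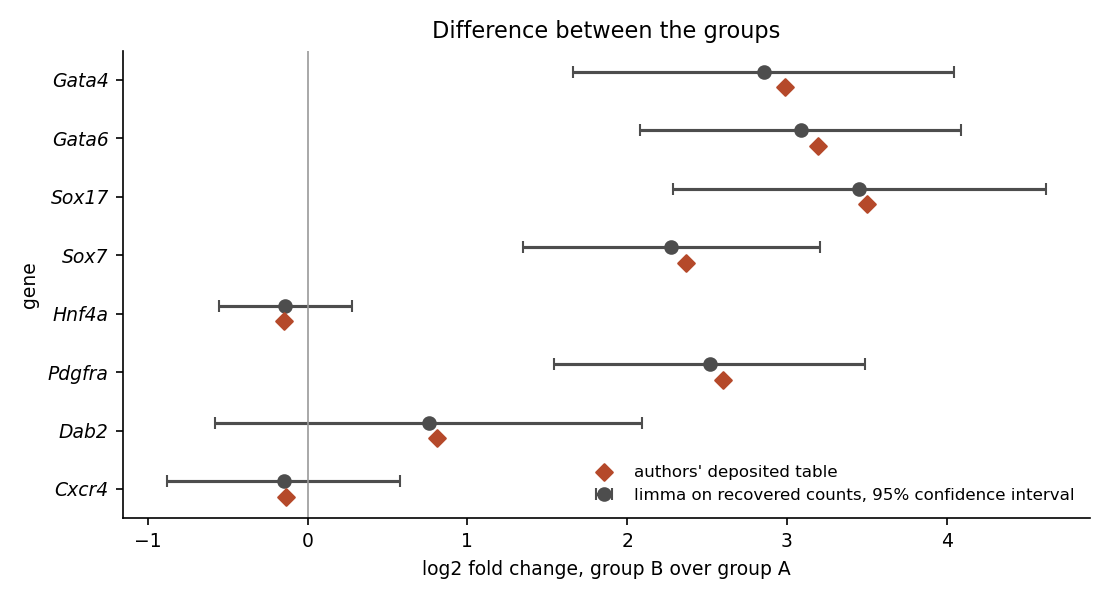
Log2 fold change of group B over group A for the 8 genes. Diamonds are the authors' deposited values, circles the limma estimates from 2 libraries in each group, and bars their 95% confidence intervals, which lie above 0 for Gata4, Gata6, Sox17, Sox7 and Pdgfra and include 0 for Hnf4a, Dab2 and Cxcr4.

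The libraries of a group also differed from each other in most of the 8 genes. B1 exceeded B2 by more than 2-fold for 6 of the 8 genes, Dab2 included, with log2 ratios of 1.12 for Sox7 to 1.44 for Gata4, whereas 1.90% of the 16553 genes whose mean was 50 or more had a log2 ratio above 1. The standard deviation of this log2 ratio over those genes was 0.52 for B1 over B2 and 0.34 for A1 over A2. All 8 genes were higher in A1 than in A2, by log2 ratios of 0.34 for Hnf4a to 1.14 for Dab2, against 48.1% of those genes. All 22 feeder fibroblast markers were higher in A1 too, by a median log2 ratio of 1.09, beside 0.52 for the 8 genes. Relative to Gata6, the counts of Sox17 were 0.393 in B1 and 0.407 in B2, against 0.364 in A1 and 0.262 in A2. Pdgfra had 0.971 and 1.03 times the count of Gata6 in B1 and B2, against 1.53 and 1.44 in A1 and A2. The ratio of Sox7 to Gata6 was 0.365 and 0.396 in group B, against 0.644 and 0.689 in group A. Gata4 had 1.37 and 1.18 times the count of Gata6 in B1 and B2, against 1.61 and 1.39 in A1 and A2, and Dab2 had 0.791 and 0.706 times in B1 and B2, against 4.73 and 2.98 in A1 and A2. Within group B these 5 ratios differed less between the libraries than the counts themselves, which differed more than 2-fold. Hnf4a did not keep such a ratio, with 0.186 and 0.406 times the count of Gata6 in B1 and B2, against 2.45 and 2.70 in A1 and A2.

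**Figure D3:**
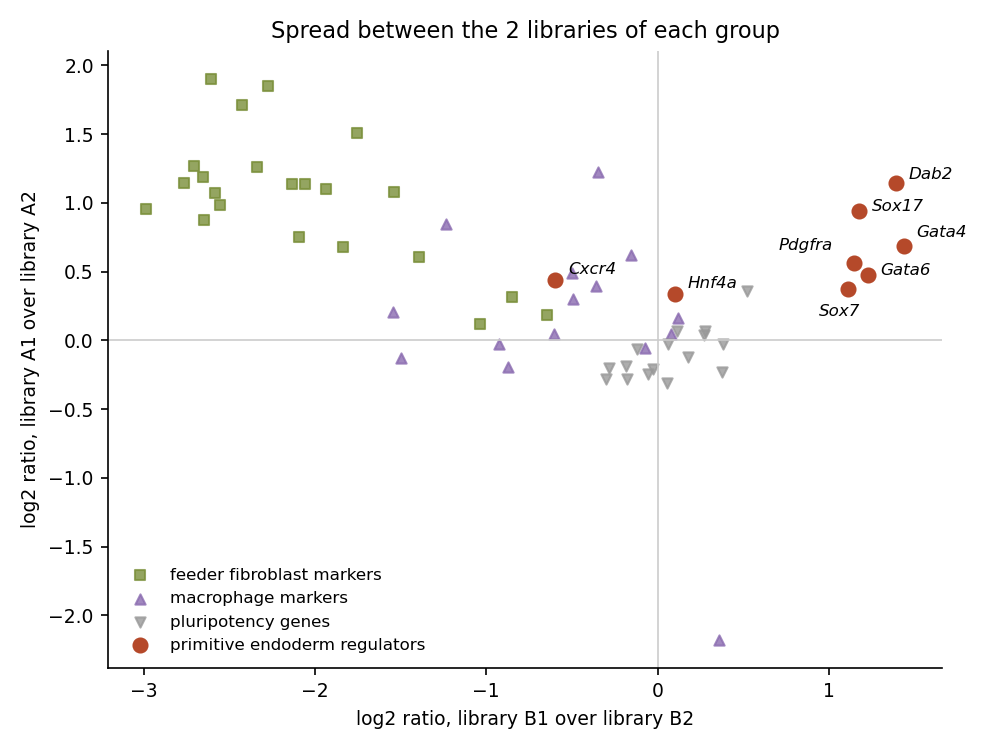
Log2 ratio of library B1 over B2 (horizontal) against that of A1 over A2 (vertical), 1 point per gene. Dab2, Gata4, Gata6, Sox17, Sox7 and Pdgfra lie to the right, between 1.12 and 1.44 on the horizontal axis, while all 22 feeder fibroblast markers lie left of 0.

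Levels of different genes were compared as normalized counts per kilobase of annotated exon. In group B the order of the mean levels was Gata4 (1970 per kb), Gata6 (900.3), Sox7 (665), Dab2 (611), Pdgfra (578), Sox17 (488), Hnf4a (306) and Cxcr4 (161). Among neighbours in this order only Hnf4a and Cxcr4 had library ranges that did not overlap, at 295 to 317 per kb and 128 to 194 per kb. In group A the order was Dab2 (348 per kb), Hnf4a (339), Gata4 (248), Cxcr4 (177), Sox7 (128), Gata6 (98.3), Pdgfra (95.2) and Sox17 (43.1). There the ranges separated Cxcr4 (150.4 to 204 per kb) from Sox7 (112 to 145) and Pdgfra (76.8 to 114) from Sox17 (29.4 to 56.8), and no other neighbours. Within each library the order of neighbours was the same in B1 and B2 except for Dab2 and Pdgfra, and the same in A1 and A2 except for Dab2 and Hnf4a. Gata6 held the second place per kilobase in group B and the sixth in group A.

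Reads from overlapping genes could add to these values, since the sources used here do not give the strand setting of the counting. Gata6 shares 504 bases with the gene 1010001N08Rik on the opposite strand. That gene had normalized counts of 593 in B1 and 197 in B2, against 40.5 in A1 and 22.7 in A2, the same order of libraries as Gata6, and it differed by 3.64 in log2 terms (adjusted p 0.253, authors' deposited table). Hnf4aos, which runs against Hnf4a over 34913 bases, had at most 2.97 normalized counts in any library. The other genes of the table that overlap Hnf4a, Sox17, Pdgfra or Dab2 had at most 1.98. Gata4, Sox7 and Cxcr4 overlapped no other annotated gene.

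Genes that act upstream of the programme were read from lists of pathway partners. Of 22 FGF and ERK genes, 0 passed as higher and 2 as lower in group B in the authors' test, against 1.54% and 1.92% of all tested genes. Fgf4, the ligand that favours primitive endoderm in the embryo, had 8686 and 5655 normalized counts in group B, against 14118 and 14819 in group A, and it fell by 1.01 as a log2 change (adjusted p of 0.000347, authors' deposited table). Spry4, a feedback inhibitor of ERK signalling, fell by 0.69 in log2 terms (adjusted p of 0.00398, authors' deposited table). In limma neither passed (adjusted p = 0.0649 for Fgf4 and 0.0757 for Spry4). Fgfr2, an FGF receptor gene named after its values were seen, had 3884 in B1 and 1542 in B2, against 598 in A1 and 501 in A2. Its libraries were ordered like those of Gata6, at a log2 difference of 2.30 (adjusted p 0.387, authors' deposited table). The other FGF receptor genes of the list, Fgfr1, Fgfr3 and Fgfr4, had overlapping libraries and log2 differences of -0.05, -0.29 and -0.24. The median of the list was -0.03.

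Ligands of the receptors among the 8 genes showed no common direction. Pdgfa, the main ligand of Pdgfra, had 17224 and 16876 normalized counts in group B, against 11382 and 11311 in group A, and rose by 0.59 in log2 terms (adjusted p of 0.0363, authors' deposited table; limma adjusted p = 0.0413). It was the only one of 5 PDGF ligand and Pdgfrb genes to pass, against 1.54% of all tested genes called higher in the authors' test. Cxcl12, the ligand of Cxcr4, had 849 in B1 and 3443 in B2, against 2664 in A1 and 1077 in A2, and Ackr3, its other receptor, 642 and 698 in group B, against 346 and 510 in group A. Neither passed the authors' test, with an adjusted p of 1 for Cxcl12 and 0.118 for Ackr3 in the deposited table. Cxcl12 was high in B2 and A1, the libraries in which feeder markers were high.

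Of 17 other transcription factors of endoderm, 16 had a count, 1 passed as higher and 0 as lower, against 1.54% and 1.92% of all tested genes, and the median log2 fold change of those at a mean of 10 or more was 0.12. Foxa1, a pioneer factor of endoderm, had 270.4 and 144 normalized counts in group B, against 23.0 and 30.7 in group A, and rose by 2.95 in log2 terms (adjusted p of 0.0192, authors' deposited table; limma adjusted p = 0.0406). Foxa2, named after its values were seen, had 1322 in B1 and 514 in B2, against 154 in A1 and 102 in A2, with an adjusted p of 0.265 in the authors' deposited table. B1 stood far above B2 for Foxa2, as it did for Gata4.

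Genes downstream of the programme were not all on the same side. Of 14 genes for basement membrane, which primitive and parietal endoderm lay down, 2 passed as higher and 0 as lower, against 1.54% and 1.92% of all tested genes. For 10 of the 14 B1 and B2 were above A1 and A2, against 26.4% of genes whose mean was 10 or more, and the median log2 fold change was 0.93. Hspg2, the proteoglycan perlecan, had 83948 and 77807 normalized counts in group B, against 38941 and 45215 in group A, and rose by 0.94 in log2 terms (adjusted p of 1.94e-05, authors' deposited table). Serpinh1, a collagen chaperone that fibroblasts also make, rose by 1.32 in log2 terms (adjusted p of 0.0167, authors' deposited table). Among 17 products of visceral endoderm, 0 passed as higher and 1 as lower, against 1.54% and 1.92% of all tested genes. Fgb and Rhox5 were at 0 in all 4 libraries, and the median over those at a mean of 10 or more was -0.24. The gene past the threshold was Spink1, a trypsin inhibitor, with 53.2 and 46.1 normalized counts in group B, against 422 and 308 in group A (adjusted p of 1.72e-08, authors' deposited table). Of the 12 products at a mean of 10 or more, 3 had B1 and B2 above A1 and A2, and 5 below. One of the 3 was Ihh, named after its values were seen, with 956 in B1 and 284 in B2, against 111 in A1 and 62.3 in A2 (adjusted p 0.533, authors' deposited table). Of 11 uptake genes that work with Dab2, 1 passed as higher and 0 as lower, against 1.54% and 1.92% of all tested genes. The gene that passed was the motor protein gene Myo6, which rose by 0.78 (adjusted p of 0.00357, authors' deposited table; limma adjusted p = 0.0622). For 4 of the 11 B1 and B2 were above A1 and A2, and for 2 below, against 26.4% and 26.0% of genes. The median of the uptake list was -0.09. One of the 2 was the megalin gene Lrp2, named after its values were seen, with 2833 and 1020 in group B, against 5888 and 3034 in group A (adjusted p 0.821, authors' deposited table).

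Pluripotency genes, the counterpart of the programme, had 0 of 16 members past the threshold as higher and 3 as lower. The shares over all tested genes were 1.54% and 1.92%. For 8 of the 16 B1 and B2 were below A1 and A2, and for 1 above. The same shares over genes whose mean was 10 or more were 26.0% and 26.4%. The median log2 difference of the 16 was -0.15. Utf1 had 23994 and 23047 normalized counts in group B, against 42044 and 52142 in group A (adjusted p of 0.000237, authors' deposited table). Prdm14 fell by 0.66 (adjusted p of 0.0251) and Lin28a by 0.62 (adjusted p of 0.0340) on the log2 scale in the authors' deposited table. In limma Utf1 passed (adjusted p = 0.0312), and Prdm14 (adjusted p = 0.0606) and Lin28a (adjusted p = 0.0808) did not. Nanog, which opposes Gata6 in the embryo and was named outside the rule for named genes, had 66718 and 55379 in group B, against 77882 and 75891 in group A, with an adjusted p of 0.602 in the authors' deposited table. Streak and definitive endoderm genes had 1 of 11 past the threshold as higher and 0 as lower, against 1.54% and 1.92% of all tested genes. The gene past it was T (brachyury), with 5830 and 4799 in group B, against 312 and 303 in group A (adjusted p of 3.51e-38, authors' deposited table). B1 and B2 were close for T, unlike for the 5 separated regulators. Cer1, a marker of anterior visceral and definitive endoderm, was at 0 in 3 libraries and at 1.18 in B2.

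**Figure D4:**
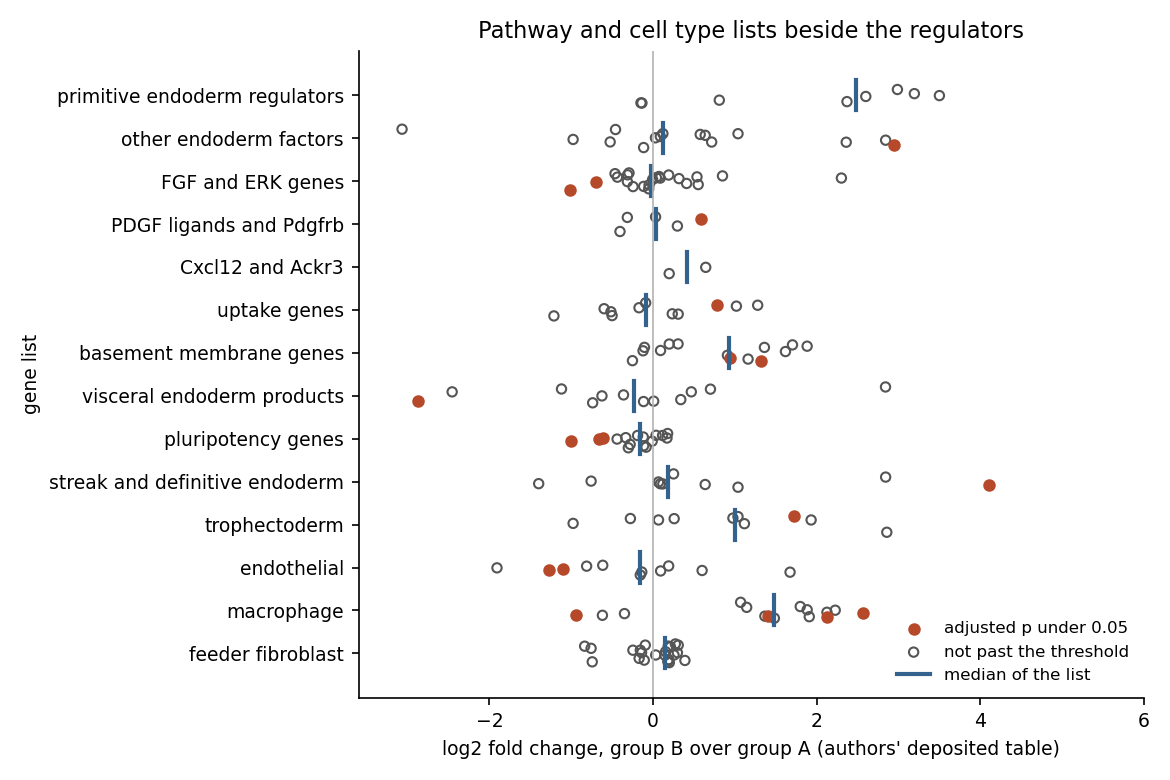
Log2 fold change of group B over group A in the authors' deposited table, 1 point per gene whose mean was 10 or more, by gene list. Filled points passed an adjusted p of 0.05 and bars are list medians, 2.49 for the 8 regulators, 0.93 for basement membrane genes, 1.48 for macrophage markers and 0.15 for feeder fibroblast markers.

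Markers of other cells that express some of these genes were read in the same libraries. The calls below stand beside 1.54% of all tested genes called higher in group B and 1.92% called lower by the authors' test. Summed normalized counts of 22 feeder fibroblast markers were 47474 in B1 and 236689 in B2, against 167106 in A1 and 82119 in A2, with 0 of 22 past the threshold of the authors' test, 0 with an unadjusted p under 0.05 and 0 in limma. Col1a2, a chain of collagen I, had 9468 in B1 and 56892 in B2, against 37638 in A1 and 17900 in A2, and Col1a1, the other chain, was ordered alike. The feeder sum was lowest in B1, where Gata4, Gata6, Sox17, Sox7, Pdgfra and Dab2 were highest, and it was higher in A1 than in A2, as the 8 genes were. Macrophage markers, which matter for Dab2 and Cxcr4, had 3 of 15 past the threshold as higher and 1 as lower, a median log2 fold change of 1.48 and none at 0. For 12 of the 15 B1 and B2 were above A1 and A2, against 26.4% of genes, and for 3 below, against 26.0%. Their sums were 4581 in B1 and 5558 in B2, against 4440.2 in A1 and 4027 in A2. Much of each sum was Cd68, named after its values were seen, with 2128 and 1960 in group B, against 2748 and 2458 in group A. Lyz2, a lysozyme of myeloid cells, had 951 and 1338 in group B, against 289 and 234 in group A (adjusted p of 8.80e-05, authors' deposited table). Spi1, the myeloid factor PU.1, had 426 and 403 in group B, against 158 and 153 in group A (adjusted p of 5.71e-05, authors' deposited table). The other calls of that list were Ptprc, higher, and the mannose receptor gene Mrc1, lower, and neither passed in limma (adjusted p = 0.129 for Ptprc and 0.109 for Mrc1). Endothelial markers, which bear on Sox7 and Sox17, had 0 of 12 past the threshold as higher and 2 as lower, Tie1 and Vwf, with sums between 21350 and 24668 in the 4 libraries. Neither of these 2 passed in limma (adjusted p = 0.0737 for Tie1 and 0.0808 for Vwf). Of the 11 endothelial markers at a mean of 10 or more, 3 had B1 and B2 above A1 and A2, and 4 below. The same shares over genes were 26.4% and 26.0%. Much of each endothelial sum was Pecam1, named after its values were seen, with 10683 and 11688 in group B, against 9775 and 9817 in group A. Trophectoderm markers had 1 of 10 past the threshold, Krt18, higher in group B. For 6 of the 10 B1 and B2 were above A1 and A2, against 26.4% of genes whose mean was 10 or more. The median log2 fold change of the trophectoderm markers was 1.01. The part of feeder and macrophage RNA in the values of Pdgfra, Dab2 and Cxcr4 was not tested.

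Of 16527 genes with a symbol and a mean no lower than 50, those whose profile over the 4 libraries lay nearest to the median profile of the 8 regulators were Smarca2, Pdlim4, Frmpd1, Ubash3b and Cd200. The measure was the Euclidean distance between log2(normalized count + 1) profiles centred on their mean, which was 0.131 for Smarca2 to 0.282 for Cd200. Sox7 and Pdgfra lay at 0.138, which follows from the construction, since the median profile is the midpoint of these 2. Gata4 lay at 0.531, Gata6 at 0.693, Sox17 at 1.11, Dab2 at 1.72, Hnf4a at 2.64 and Cxcr4 at 2.82. Smarca2, a chromatin remodelling ATPase, had 2513 in B1 and 1131 in B2, against 382 in A1 and 303 in A2. Cd200, a membrane glycoprotein, was the only one of the 5 to pass the authors' test, with 444 in B1 and 251 in B2, against 71.9 in A1 and 45.5 in A2 (adjusted p of 0.0198, authors' deposited table). With 4 libraries such likeness is a description only.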

How the data were processed

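Polyadenylated RNA of 4 samples, 2 wild type and 2 Gsk3a-/-;Gsk3b-/-, is summarised in 1 deposited table. STAR, DESeq and mm10 are named, without versions, in the submitters' processing notes. For the read counter, its strand setting and the annotation the sources used here give nothing. Per the file headers, the authors give for each gene a mean normalized count (reads scaled by size factors), its fold change (ratio), the log2 of it, and p-values before and after adjustment. The table has 46608 rows for 46603 gene IDs, used once each. The authors' test was kept as the main test with an adjusted p of 0.05.

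Each group mean is a sum of whole reads of 2 libraries times 2 steps, the smallest values of the column. For the 28616 genes above 0 in group A, and the 28353 in group B, whole counts fitted within 1e-06. Where another pair fitted too (1700 genes in A, 11 in B) the closest was taken. These counts were tested two-sided with limma 3.58.1 (R 4.3.3, trended variance) on log2(normalized count + 1), a scale that understates changes of low genes. The 20465 genes whose mean was 10 or more entered, and p-values were adjusted by Benjamini-Hochberg. The design text calls the replicates biological without naming separate cultures, so p-values measure the spread between these libraries, which may be technical. On simulated counts of 2 against 2 libraries over 20432 genes, with a dispersion of 0.0375, limma called 34% of genes changed 2-fold and 100% of those changed 8-fold. These shares do not carry over to genes whose libraries differ more within a group, as most of the 8 do.

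The 8 genes, the 13 other gene lists and the tests were chosen with earlier results of these data known. Of each list, up to 3 genes with the smallest adjusted p past the threshold were named, or else the 2 with the highest mean. Positions and exon lengths are from GENCODE M21 (GRCm38), and promoter windows from RefSeq.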

Additional observations from a re-analysis of the deposited data

How the results depend on the processing

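The count of regulators called depended on the test. It was 0 with the authors' adjusted p-values and 1, Sox17 (adjusted p of 0.0441), when their p-values were adjusted over genes whose mean was 10 or more, where 2.61% of genes were called higher. With limma it was 3, and it became 4 with total-count scaling (1.02% of genes called higher), and 5 with upper-quartile scaling (1.24%), with a pseudocount of 5 (1.19%) or with no filter on low values (0.698%). Fits with 1 library left out took their spread from 1 group alone, so their calls are not given. No setting with all 4 libraries called a regulator lower. The median log2 fold change of the 8 genes was 1.83 to 2.96 with 1 library left out and 2.38 to 2.40 in the other limma settings, and 5 genes stayed separated under both other scalings. The 80 log2 fold changes of single genes under the alternatives include repeats. The re-adjusted p-values reuse the deposited fold changes, and limma with no filter repeats the estimates of limma with it. Of the 80, 3 changed sign: Hnf4a without A1 (0.030), and Cxcr4 without A1 (0.070) and without B1 (0.15). The cause was not tested. No paired analysis was possible because the table's columns carry no replicate numbers of the labels. Recovering the counts was known to be possible from earlier work on this table. The spread within a group was known from 2 libraries only, and an effect of depth was not tested.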
